A study of Mus musculus with 16 samples.

Results

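Transcripts of 10 chemokine genes were followed in the neonatal mouse cochlea after ablation of Lgr5+ supporting cells. The genes were chosen by symbol (Ccl2, Ccl7, Ccl3, Ccl4, Cxcl1, Cxcl2, Cxcl10, Cxcl12, Cxcl14 and Cx3cl1), and all 10 were found among the 47729 genes with values. Cxcl1 and Cxcl10 rose after damage, 7.75- and 5.76-fold in the mean of total RNA, and Cxcl2 went from 2 reads in all 4 control libraries of total RNA to 62 in DTR, while Ccl2, Ccl7, Cxcl12, Cxcl14 and Cx3cl1 did not pass the test. Ccl7 was set apart by its level in ribosome-bound RNA (IP), which in control cochleae was 5.44-fold that in total RNA (input), without correction for gene length.

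Chemokines are small secreted proteins that guide leukocytes and other motile cells through G protein-coupled receptors. Ccl2, Ccl7, Ccl3 and Ccl4 act mainly on monocytes, macrophages and lymphocytes, Cxcl1 and Cxcl2 draw neutrophils through Cxcr2, and Cxcl10 draws activated T cells through Cxcr3. Cxcl12 and Cxcl14 are made steadily by many tissues, and Cx3cl1 (fractalkine) is a membrane-tethered ligand of Cx3cr1, a receptor of macrophages that is well known from studies of the injured cochlea.

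RiboTag mice carry a ribosomal protein, Rpl22, that takes up an HA tag once Cre has acted, so that RNA bound to tagged ribosomes can be pulled down from a whole-tissue homogenate. Control mice were GLAST-CreERT/+; Rpl22-HA/+, and DTR mice were Lgr5-DTR/+; GLAST-CreERT/+; Rpl22-HA/+, with the diphtheria toxin receptor expressed from the Lgr5 locus. By the study's methods both genotypes received diphtheria toxin (DT) and tamoxifen at postnatal day (P) 1 and were killed at P4, although the sample labels give the control as untreated. Each homogenate, a pool of cochleae from several mice of both sexes with spiral ganglion, lateral wall and Reissner's membrane removed, gave an input library from a small share and an IP library from the rest, so that 4 control and 4 DTR pools yielded 16 libraries. The tag follows GLAST (Slc1a3) promoter activity and is not specific for a single cell type, and DTR mice are heterozygous for Lgr5. In these bulk samples fewer cells of a type and less RNA per cell cannot be told apart. If the labels and not the methods hold, toxin treatment and genotype cannot be told apart.

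Libraries held between 28089836 and 41966310 counted reads, and 3 reads corresponded to 0.0715 to 0.107 counts scaled to library size (CPM). Lgr5 was at 59.0 to 66.1 CPM in control input and 11.2 to 19.6 CPM in DTR input, and at 31.4 to 40.0 and 8.13 to 11.3 CPM in the corresponding IP. Slc1a3 was detected at 195 CPM or more in all libraries, with log2 fold changes (LFC) after damage of -0.11 in IP (adjusted p = 0.497) and -0.04 in input (adjusted p = 0.862). Between IP and input its LFC was -0.20 in control (adjusted p = 0.102) and -0.27 in DTR (adjusted p = 0.030). The Slc1a3 transcript was thus not enriched in the IP of either genotype. Of 8 supporting cell markers, 6 fell after damage in each fraction, beside 7.3% of all tested genes in IP and 5.21% in input. Their median LFC was -1.41 in IP and -1.53 in input, with Lfng, which modifies Notch, lowest at -4.08 and -3.35. Hair cell markers were present in every library, summing to 579 CPM or more in input and 173 CPM or more in IP.

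Unless stated otherwise, differences were tested with limma on log2 of quantile-normalised CPM plus 0.5, over the 16994 genes with 0.5 CPM or more in every library of some group, and p-values were adjusted with the Benjamini-Hochberg method. LFC values lie on that scale and understate the change of scarce genes. Ccl3, Ccl4 and Cxcl2 did not reach the filter and were compared with the exact two-sided permutation test on CPM, which with 4 libraries against 4 cannot give a p below 0.0286. Cxcl1 and Cxcl10 reached it through DTR libraries alone. The plot of CPM by library gives the values of all 10 genes.

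**Figure D1:**
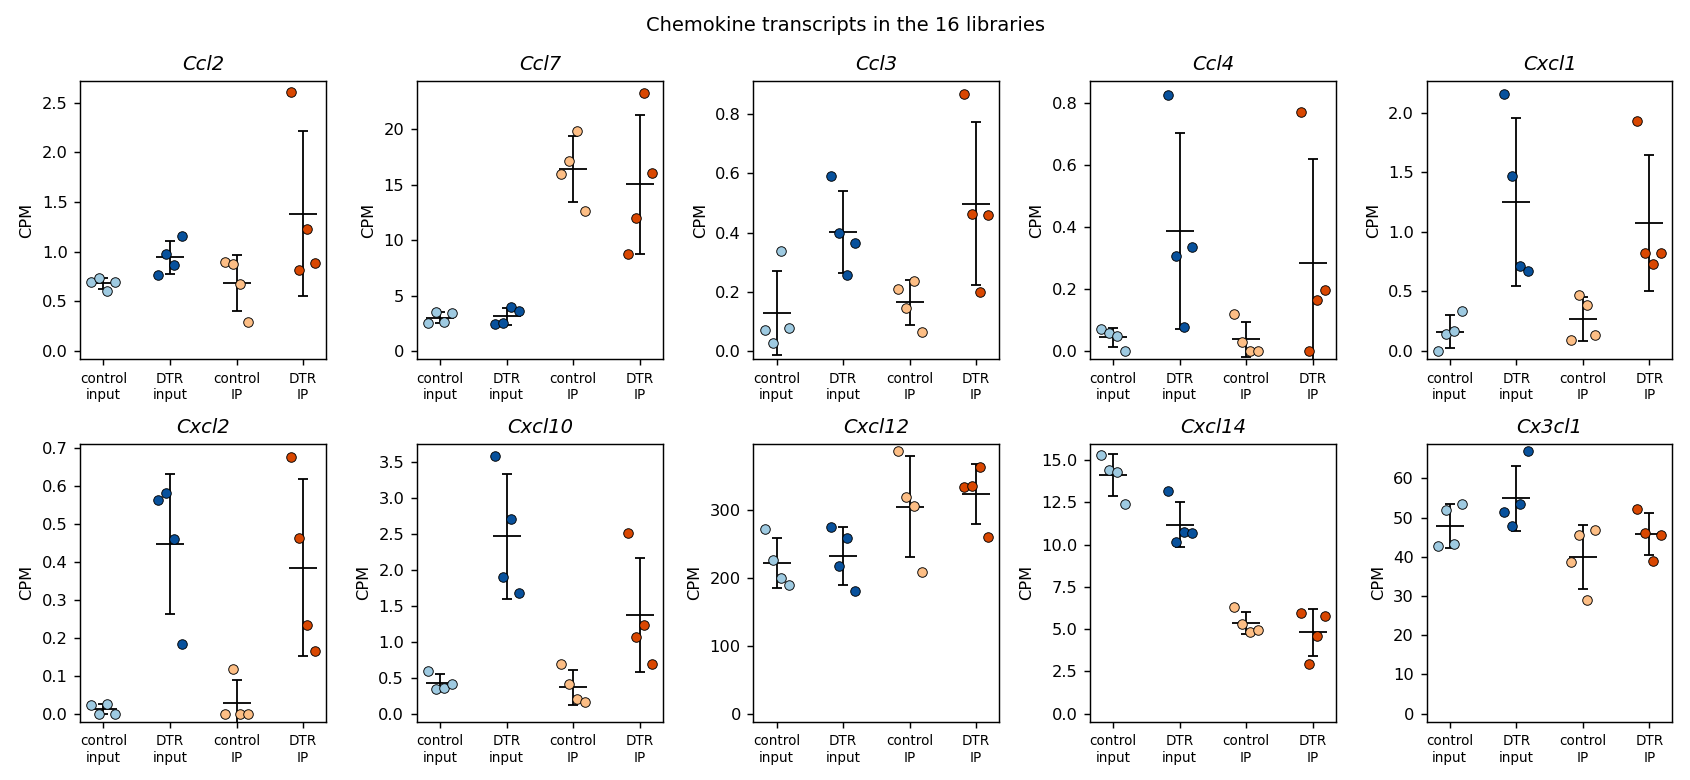
CPM (vertical axes, linear and different for each gene) of the 10 chemokine genes in control input, DTR input, control IP and DTR IP, with 4 libraries per group shown as points in the order of replicates 1 to 4 and the mean ± SD as bars. DTR points of Cxcl1, Cxcl2 and Cxcl10 lie above all control points of the same fraction, Ccl7 and Cxcl14 separate IP from input, and Cxcl12, with 180 to 388 CPM, has the highest level.

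The promoters of Cxcl1, Cxcl2 and Cxcl10 are shown because all DTR libraries of these 3 genes lay above all control libraries of the same fraction, and because NF-kB is a factor known to act on them. Sequences are the 250 bases before the RefSeq start (GRCm38.p6), 5′ to 3′ on the gene's strand, with matches to the 10-base NF-kB consensus in capitals. They lie at chr5:90890995-90891244 on the plus strand for Cxcl1, chr5:90903649-90903898 on the plus strand for Cxcl2 and chr5:92348890-92349139 on the minus strand for Cxcl10.
Cxcl1: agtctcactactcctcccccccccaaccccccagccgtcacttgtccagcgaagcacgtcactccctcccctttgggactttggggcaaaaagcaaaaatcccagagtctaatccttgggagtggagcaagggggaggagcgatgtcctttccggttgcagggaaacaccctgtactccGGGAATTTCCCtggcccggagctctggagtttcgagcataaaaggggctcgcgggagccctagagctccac
Cxcl2: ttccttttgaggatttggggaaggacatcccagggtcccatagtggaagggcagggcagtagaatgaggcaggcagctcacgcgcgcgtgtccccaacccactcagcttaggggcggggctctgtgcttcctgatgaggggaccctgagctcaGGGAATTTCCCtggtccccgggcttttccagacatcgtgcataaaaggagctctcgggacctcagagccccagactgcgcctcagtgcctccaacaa
Cxcl10: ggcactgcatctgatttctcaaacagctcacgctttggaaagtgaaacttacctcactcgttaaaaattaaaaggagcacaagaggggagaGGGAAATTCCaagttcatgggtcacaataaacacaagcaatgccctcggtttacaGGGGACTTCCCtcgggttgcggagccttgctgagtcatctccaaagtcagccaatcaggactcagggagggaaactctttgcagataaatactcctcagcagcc
Cxcl1 and Cxcl2, which lie 10755 bp apart on chromosome 5, held the same 11 letters, beginning 71 bases before the start in Cxcl1 and 97 in Cxcl2. Cxcl10 held 2 different matches, beginning 159 and 104 bases before the start. The consensus, searched on both strands with overlapping matches joined, was present in 3 of the 7 chemokine promoters in the reference table and in 7.25% of 32851 promoters of the same length. The AP-1 motif, searched as TGANTCA on both strands, was found in Cxcl10 alone of the 7 and in 6.75% of all promoters, and it overlapped no NF-kB match. The interferon-stimulated response element (ISRE), searched by the same means, was found in Cxcl10 and Cxcl14, or 2 of the 7, and in 2.98% of all promoters. Ccl2, Ccl7 and Ccl4 had no entry. A match describes letters in this window and not a bound site. The NF-kB motif was picked because it is known for these 3 genes, so its share beside all promoters is no test of enrichment. Whether NF-kB acted on them here was not tested.

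Cxcl10 (ENSMUSG00000034855, chr5:92346638-92348889, minus strand), an interferon-inducible ligand of Cxcr3, had the largest LFC in input and IP among the 7 of the 10 genes that could be tested. In input it was at 0.596, 0.338, 0.363 and 0.414 CPM in control replicates 1 to 4 and at 3.57, 1.89, 2.71 and 1.67 CPM in DTR replicates. In IP it was at 0.688, 0.407, 0.206 and 0.163 CPM in control and 2.51, 1.07, 1.23 and 0.691 CPM in DTR. All DTR inputs were above all control inputs, whereas in IP the lowest DTR library (replicate 4) and the highest control library (replicate 1) nearly met. Mean CPM was 5.76-fold higher in DTR input (LFC 1.48, SE 0.26, adjusted p = 0.00056) and 3.75-fold higher in DTR IP (LFC 0.91, SE 0.26, adjusted p = 0.022). In IP, Cxcl10 had an adjusted p of 0.056 without a filter on low values, 0.059 in a fit of the compared groups alone and 0.0092 in edgeR without a filter.

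Exons of Cxcl10 overlap those of Art3, a gene on the opposite strand, and the sources used here do not state whether reads were counted by strand. Art3 fell in input, from a mean of 92.5 to 57.2 CPM (LFC -0.68, adjusted p = 0.036), opposite to Cxcl10, and was at 17.6 and 15.4 CPM in control and DTR IP (adjusted p = 0.555). Reads of the shared exons cannot be told apart, and their part in the Cxcl10 level was not tested.

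Cxcl1 (ENSMUSG00000029380, chr5:90891241-90893115, plus strand), a neutrophil attractant, had 0, 0.141, 0.169 and 0.336 CPM in control input and 2.16, 1.46, 0.715 and 0.670 CPM in DTR input. In IP it had 0.0897, 0.466, 0.382 and 0.131 CPM in control and 1.93, 0.819, 0.729 and 0.822 CPM in DTR. All DTR libraries were above all control libraries of the same fraction, and replicate 1 was the highest DTR library in both. Mean CPM was 7.75-fold higher in DTR input (LFC 1.24, SE 0.27, adjusted p = 0.0040) and 4.02-fold higher in DTR IP (LFC 0.86, SE 0.27, adjusted p = 0.037). The input fold was 12.1 without control input replicate 4. The IP call was lost without a filter on low values (adjusted p = 0.077), in edgeR without a filter (0.051) and in a fit of the compared groups alone (0.051).

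Cxcl2 (ENSMUSG00000058427, chr5:90903871-90905938, plus strand), the neighbouring neutrophil attractant, was almost absent from control cochleae. Control input held 2 reads in all 4 libraries together (0.0238, 0, 0.0242 and 0 CPM), and control IP held 4 reads, all in replicate 2 (0.116 CPM). DTR input had 0.561, 0.580, 0.460 and 0.183 CPM from 62 reads, and DTR IP had 0.675, 0.463, 0.232 and 0.164 CPM from 46 reads. The groups did not overlap in either fraction, and the exact permutation test gave p = 0.0286 in both, the smallest it can give. The ratio of pooled reads per depth was 35.2 in input (95% exact binomial interval 9.35 to 297) and 12.7 in IP (4.64 to 48.6), intervals that cover counting error only. Without control IP replicate 2 no control IP read remained. Fitted with edgeR on the reads of all genes without a filter, Cxcl2 had an adjusted p of 0.0014 in input and 0.012 in IP.

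Ccl3 and Ccl4, neighbouring genes on chromosome 11 that encode the macrophage inflammatory proteins, were also scarce. Ccl4 had 0.0715, 0.0563, 0.0484 and 0 CPM in control input and 0.827, 0.305, 0.0766 and 0.335 CPM in DTR input, without overlap (exact permutation p = 0.0286). In IP, Ccl4 had 0.120, 0.0291, 0 and 0 CPM in control and 0.771, 0, 0.166 and 0.197 CPM in DTR, where replicate 2 held no read and the groups overlapped (exact permutation p = 0.143). Pooled reads of Ccl4 gave ratios of 8.44 in input (95% exact binomial interval 3.82 to 22.0) and 7.74 in IP (3.02 to 25.3), but edgeR without a filter did not call either (adjusted p = 0.079 and 0.124). Without DTR replicate 1 the ratio was 5.15 in input (interval 2.15 to 14.2) and 3.28 in IP (1.05 to 12.1), and without control IP replicate 1, which left 1 control read, it was 28.9 (4.86 to 1174).

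Ccl3 had 0.0715, 0.0282, 0.339 and 0.0776 CPM in control input against 0.591, 0.397, 0.255 and 0.365 CPM in DTR input. In IP, Ccl3 had 0.209, 0.146, 0.235 and 0.0654 CPM in control against 0.868, 0.463, 0.199 and 0.460 CPM in DTR. Both fractions overlapped, through control input replicate 3 and DTR IP replicate 3, and the differences did not pass the exact permutation test (p = 0.0571 in input and 0.0857 in IP). Pooled-read ratios of Ccl3 were 2.98 in input (95% exact binomial interval 1.77 to 5.18) and 3.01 in IP (1.82 to 5.16). The input ratio was 6.58 (interval 2.99 to 17.1) without control input replicate 3.

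Ccl2 and Ccl7, ligands of Ccr2 whose genes lie 8258 bp apart on chromosome 11, did not pass the test after damage. Ccl2 (ENSMUSG00000035385) had 0.691, 0.732, 0.604 and 0.699 CPM in control input and 0.768, 0.977, 0.868 and 1.16 CPM in DTR input. All 4 DTR inputs were above all control inputs, by a narrow margin (1.38-fold in mean CPM, exact permutation p = 0.0286), but the fit across all genes did not call it (LFC 0.14, SE 0.23, adjusted p = 0.793). In IP, Ccl2 had 0.897, 0.873, 0.676 and 0.294 CPM in control and 2.60, 0.819, 1.23 and 0.888 CPM in DTR, with replicate 1 far above the other DTR libraries (LFC 0.42, SE 0.23, adjusted p = 0.242).

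Ccl7 (ENSMUSG00000035373) had 2.55, 3.49, 2.59 and 3.44 CPM in control input and 2.45, 2.53, 3.96 and 3.62 CPM in DTR input. In IP it had 16, 17.2, 19.9 and 12.6 CPM in control and 8.71, 12.0, 23.3 and 16.1 CPM in DTR. DTR libraries lay on both sides of the control range in both fractions, with LFC of -0.05 in input (SE 0.25, adjusted p = 0.941) and -0.25 in IP (SE 0.25, adjusted p = 0.575).

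Cxcl12, which retains and guides Cxcr4+ cells, was the most abundant of the 10 genes, at 191 to 273 CPM in control input, 180 to 275 CPM in DTR input, 208 to 388 CPM in control IP and 261 to 363 CPM in DTR IP. Its LFC after damage was 0.08 in input (SE 0.17, adjusted p = 0.837) and 0.15 in IP (SE 0.17, adjusted p = 0.619). Cx3cl1 ranged from 42.8 to 53.5 CPM in control input and 47.9 to 66.9 CPM in DTR input, and from 28.9 to 46.8 and 39.0 to 52.2 CPM in IP. Its LFC was 0.17 in input (SE 0.15, adjusted p = 0.548) and 0.18 in IP (SE 0.15, adjusted p = 0.451), with overlapping groups.

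Cxcl14 had 15.3, 14.4, 14.3 and 12.4 CPM in control input. It had 13.1, 10.2, 10.7 and 10.7 CPM in DTR input, where only DTR replicate 1 entered the control range. In IP, Cxcl14 had 6.28, 5.33, 4.82 and 4.97 CPM in control and 5.94, 2.92, 4.61 and 5.79 CPM in DTR, with overlap. Its LFC of -0.36 in input (SE 0.18, adjusted p = 0.233) and -0.30 in IP (SE 0.18, adjusted p = 0.298) did not pass.

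Taking the fractions in turn, 2 of the 7 tested chemokines (Cxcl1 and Cxcl10) rose in DTR IP, where 8.44% of all tested genes rose and 7.3% fell, and the same 2 rose in DTR input, where 7.17% rose and 5.21% fell. Because both passed the expression filter only where they were high, the count itself is no support for a change of the family. DTR libraries were above all control libraries for Cxcl1, Cxcl2 and Cxcl10 in IP (10.5% of tested genes, and 6.54% in the lower direction) and for these 3, Ccl2 and Ccl4 in input (11.6%, and 7.73% in the lower direction). These shares cover tested genes only, which leave out Cxcl2 and Ccl4 and hold Cxcl1 and Cxcl10 through DTR libraries alone. They are thus no matched background for the genes named. The median LFC of the 7 was 0.18 in IP and 0.14 in input, beside -0.0043 and -0.021 over all tested genes. The thresholds that the study set for IP groups were applied here to the limma values, and to input as well. They add an LFC of at least 1 and a gap between groups of over 1.5-fold above an expression floor of 1.08 CPM. This floor is the 10th percentile over the genes tested here, and that of the study may differ. No member was called in either fraction (1.12% of tested genes were called higher and 1.34% lower in IP, and 1.34% and 1% in input). The study took its FDR from DESeq2, so these are not its own calls. With values held at this floor, the gap was 1 for Cxcl1 in both fractions and for Cxcl10 in IP. For Cxcl10 in input it was 1.4999. How these calls change with another floor was not tested.

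Cxcl1 and Cxcl10 passed in input under all 26 alternatives that could test them, whereas in IP Cxcl1 passed under 20 and Cxcl10 under 21. Most of these alternatives kept the filter that both genes reached through DTR libraries alone, so the counts are no independent support. A filter of 2 CPM dropped both genes. Without a filter on low values, the input adjusted p was 0.012 for Cxcl1 and 0.0030 for Cxcl10. Neither passed in IP without DTR IP replicate 1 (adjusted p = 0.130 for Cxcl1 and 0.083 for Cxcl10) or without control IP replicate 4 (0.086 and 0.062), and only 1 of them passed without control IP replicate 1 or 3.

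**Figure D2:**
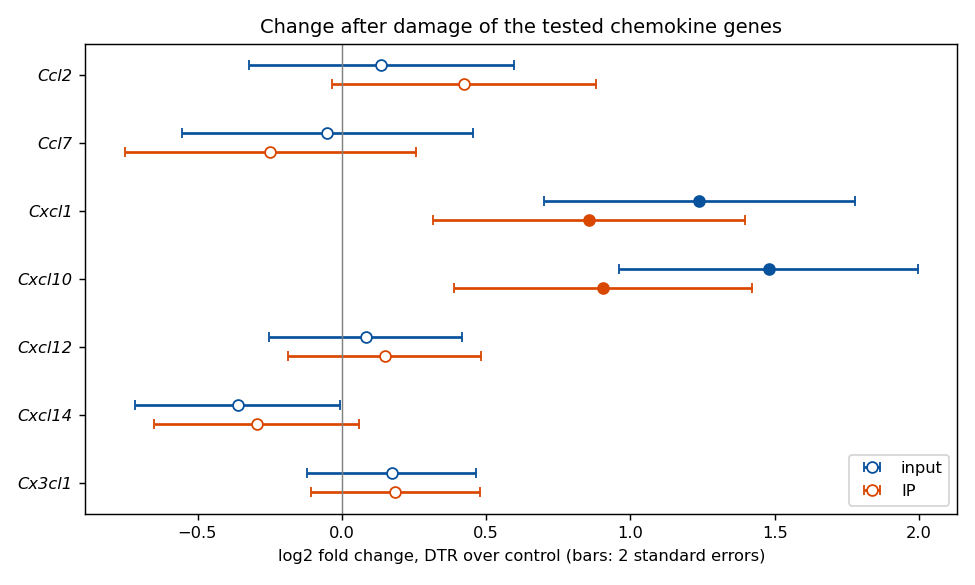
LFC of DTR over control (horizontal axis, log2 scale) for the 7 tested chemokine genes in input (blue) and IP (orange), with bars of 2 SE and filled points where the adjusted p was under 0.05. Only Cxcl1 and Cxcl10 are filled, at 1.24 and 1.48 in input and 0.86 and 0.91 in IP.

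To ask whether damage acted differently on ribosome-bound and total RNA, the difference between the IP and input changes was tested in the same fit. No chemokine passed (adjusted p = 0.999 for each of the 7), and neither edgeR nor DESeq2 called any, in a comparison where 0.0118% of all tested genes passed. At an unadjusted p under 0.05 the count was also 0, with the smallest p, 0.134, for Cxcl10, whose difference was -0.57 (SE 0.37). The standard errors of these differences, 0.21 to 0.38, leave room for differences of some size.

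In control cochleae Ccl7 and Cxcl12 were higher and Cxcl14 was lower in IP than in input, so that 3 of 7 passed in a comparison where 19.3% of tested genes were higher and 20.7% lower. In DTR cochleae the same 3 genes passed in the same directions and Cxcl10 was lower, beside 18.6% and 20.5% of all tested genes. Beside such backgrounds the counts are no result about the family. The study took an LFC of at least 2 as enrichment in the IP, which Ccl7 alone of the 7 reached in both genotypes, beside 0.8% of tested genes in control and 0.747% in DTR. With an LFC of at least 1 and a gap of over 1.5-fold, Ccl7 was higher and Cxcl14 lower in both genotypes, beside 4.12% of tested genes higher and 3.56% lower in control and 3.67% and 2.11% in DTR. IP and input libraries of these 2 genes did not overlap, as was found for 17.2% (higher) and 21.5% (lower) of tested genes in control and 16.7% and 16.2% in DTR.

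Ccl7 was 3.67- to 7.68-fold higher in IP than in the input of the same pool in control and 3.55- to 5.89-fold higher in DTR. Its LFC between IP and input was 2.27 in control (SE 0.25, adjusted p = 1.1e-06) and 2.07 in DTR (SE 0.25, adjusted p = 4.3e-06), and it passed under all 27 alternatives in both. Ccl2, its neighbour, had LFC of -0.02 (SE 0.23, adjusted p = 0.951) and 0.26 (SE 0.23, adjusted p = 0.388). Reads of Ccl7 per read of Ccl2 therefore ranged from 2.59 to 4.93 over the 8 inputs and from 3.35 to 42.9 over the 8 IPs. The lowest IP value came from DTR replicate 1, where Ccl2 was highest, and overlapped the input range. Before its clustering the study corrected for an effect of gene length in the IP samples, which was not done here for any gene. Ccl7 has 801 bp of exon and Ccl2 1138 bp, and the part of length in these differences was not tested.

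Cxcl14 was at 0.337 to 0.410 of its input level in control IP and at 0.287 to 0.543 in DTR IP. Its LFC between IP and input was -1.24 in control (SE 0.18, adjusted p = 2.1e-05) and -1.17 in DTR (SE 0.18, adjusted p = 4.5e-05). Cxcl12 was 1.09- to 1.54-fold higher in IP of the same pool in control (LFC 0.51, SE 0.17, adjusted p = 0.021) and 1.22- to 1.54-fold higher in DTR (LFC 0.58, SE 0.17, adjusted p = 0.010). The control value of Cxcl12 passed under 20 of 27 alternatives, and was lost without control IP replicate 1 or 2 or without control input replicate 3 or 4 (adjusted p = 0.086, 0.051, 0.054 and 0.064).

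Cxcl10 in DTR IP was at 0.412 to 0.701 of the input of the same pool (LFC -0.72, SE 0.26, adjusted p = 0.033), a call kept under 15 of 26 alternatives. It was lost without DTR input replicate 1 or 3 (adjusted p = 0.107 and 0.084), without DTR IP replicate 2, 3 or 4 (0.068, 0.065 and 0.113) and with edgeR or DESeq2 (0.105 and 0.119). Cx3cl1 was at 0.667 to 0.902 of input in control (LFC -0.29, SE 0.15, adjusted p = 0.120) and 0.682 to 1.02 in DTR (LFC -0.28, adjusted p = 0.138). With the pool as a block, the control difference of Cx3cl1 had an adjusted p of 0.041.

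**Figure D3:**
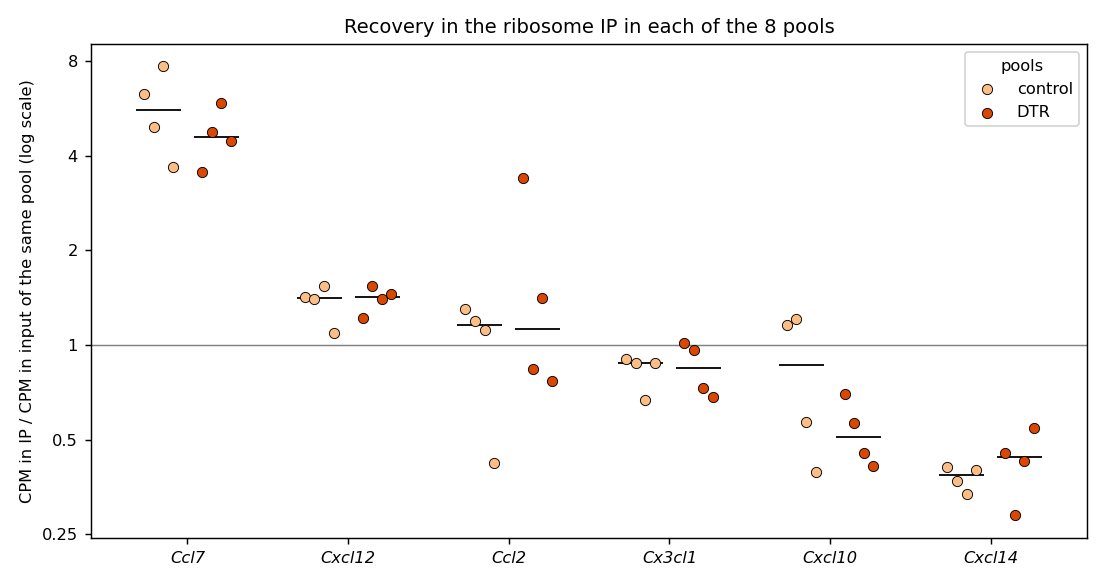
CPM in IP divided by CPM in input of the same pool (vertical axis, log scale) for 6 chemokine genes, with 4 control pools in light and 4 DTR pools in dark orange and medians as lines. Ccl7 stands at 3.55 to 7.68, Cxcl12 above 1 in all 8 pools, and Cxcl14 at 0.543 or below.

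Per kilobase of exon, the order in control input was Cxcl12 (mean 27.2 CPM per kb), Cx3cl1 (12.2), Cxcl14 (7.72), Ccl7 (3.77), Ccl2 (0.599), Cxcl10 (0.190), Ccl3 (0.168), Cxcl1 (0.0862), Ccl4 (0.0667) and Cxcl2 (0.00580). The first 5 did not overlap between neighbours in this order. From Cxcl10 on, the ranges of neighbours overlapped. In DTR input Cxcl10 stood above Ccl2 in mean level per kb (1.09 against 0.828), with overlapping ranges. In both IP groups Ccl7 stood second, at 20.5 CPM per kb in control and 18.8 in DTR, with ranges that did not overlap that of Cxcl12 but, in DTR, did overlap that of Cx3cl1.

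Over the 16 libraries, genes most like each tested chemokine were taken as those with the highest Pearson correlation of log2 values, given as a description. The 3 closest to Cxcl10 were Klf10 (r = 0.941), Pmaip1 (0.936) and Cstf3 (0.931), and the 3 closest to Cxcl1 were Fgfr1op (0.938), Gm45218 (0.921) and Rbm5 (0.919). For Ccl7, whose pattern is that of the IP, they were Sdr39u1 (0.989), Nkap (0.986) and Coa4 (0.985), and for Cxcl14 Egfl8 (0.960), Dhh (0.959) and Lgi4 (0.955). Cxcl12 was closest to Nova1 (0.946), Kif2a (0.942) and Purg (0.938), and Cx3cl1 to Ampd2 (0.915), Adcy4 (0.908) and Mvp (0.901). Ccl2 had no close partner, the highest being Zfp638 (0.798), Gm29100 (0.794) and Ylpm1 (0.788). All of these share the 4-group structure of the libraries.

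Among the other chemokine ligands, 9 of 28 genes could be tested. Cxcl16, a membrane-bound ligand of Cxcr6, rose from 13.2 to 17.4 CPM in control input to 60.3 to 73.2 CPM in DTR input (LFC 2.11, SE 0.17, adjusted p = 4.3e-08) and from 11.9 to 22.1 CPM to 41.9 to 50.9 CPM in IP (LFC 1.48, SE 0.17, adjusted p = 4.0e-06). Ccl9 rose in IP (LFC 1.37, adjusted p = 0.0069), as did Pf4, the platelet factor also made by macrophages (LFC 0.65, adjusted p = 0.037), and Ccl6, which reached the filter through DTR input alone, rose in input (LFC 0.70, adjusted p = 0.039). Ccl28 fell in IP (LFC -0.74, adjusted p = 0.011). In all, 3 of the 9 rose and 1 fell in IP, beside 8.44% and 7.3% of all tested genes. In input 2 rose and 0 fell, beside 7.17% and 5.21%. The call of Ccl6 was lost without any 1 of 8 libraries (all but control input replicate 1 among the inputs, and control IP replicate 1), and the other CXC and XC chemokines had 1 call in IP in place of 2 without control IP replicate 2, 3 or 4 or DTR IP replicate 1, 3 or 4. Ccl26 and the gene IDs used for Ccl19 and Ccl21a were at 0 in every library. Ccl19 and Ccl21a have 2 gene IDs each, and the other IDs are not reported here.

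Of 23 chemokine receptors, 9 were tested. Cx3cr1, the receptor of Cx3cl1, rose in input from 6.84 to 10.01 CPM in control to 12.9 to 22.6 CPM in DTR (LFC 0.92, SE 0.21, adjusted p = 0.0050), and in IP was at 2.39 to 4.22 and 3.06 to 5.69 CPM (LFC 0.20, adjusted p = 0.580). Both receptors of Cxcl12 fell in IP. Cxcr4 had 4.87 to 7.76 CPM in control IP and 1.83 to 3.56 CPM in DTR IP (LFC -1.19, SE 0.26, adjusted p = 0.0034), and the scavenger Ackr3 had 89.4 to 123 CPM and 55.9 to 80.9 CPM (LFC -0.69, SE 0.17, adjusted p = 0.0071). In input their LFC of -0.48 and -0.36 did not pass (adjusted p = 0.284 and 0.197). Ackr4, a scavenger of CC chemokines, fell in IP (LFC -2.34, adjusted p = 7.3e-07) and in input (LFC -1.34, adjusted p = 0.00043).

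Several receptors of the scarce chemokines were themselves scarce. Ccr1 had LFC of 0.49 in IP and 0.04 in input (adjusted p = 0.279 and 0.959). Cxcr2, the receptor of Cxcl1 and Cxcl2, was at 0 to 0.183 CPM in all 16 libraries, Cxcr3, the receptor of Cxcl10, at 0 to 0.739 CPM, and Ccr2 at 0 to 0.466 CPM, and none of these 3 reached the filter. In all, 0 of the 9 tested receptors rose and 3 fell in IP, and 1 rose and 1 fell in input. Of all tested genes, 8.44% rose and 7.3% fell in IP, and 7.17% rose and 5.21% fell in input.

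Most listed genes of the NF-kB pathway, whose factors drive many inflammatory chemokines, rose in both fractions. Like the other lists, this one was set with earlier results of these data known. Of 16 genes, 12 rose in IP and 10 in input and none fell, beside 8.44% and 7.17% of all tested genes that rose, with median LFC of 0.66 and 0.90. Relb and Nfkb2, subunits of the non-canonical branch, had LFC of 3.09 and 2.89 in IP and 3.26 and 3.17 in input, and Relb went from 11.7 to 14.7 CPM in control input to 105 to 161 CPM in DTR input. The adhesion molecule Icam1 (1.38 in IP and 1.66 in input) and the inhibitor Nfkbia (1.33 and 1.34) rose in both, and Birc3 had 0.83 and 1.45. Rela did not pass in IP (LFC 0.21, adjusted p = 0.262) and Nfkb1 did not pass in input (0.14, adjusted p = 0.592). Nfkbiz and Vcam1 did not pass in input, and Traf1, Sod2 and Tnip1 did not pass in either fraction.

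Of 18 interferon response genes, 2 rose in IP and 3 in input, beside 8.44% and 7.17% of all tested genes, and none fell. Bst2 (LFC 1.05 and 1.04 in IP and input) and Usp18 (1.20 and 1.06) passed in both, and Irf1 in input alone (0.67, adjusted p = 0.017, against 0.31 and 0.282 in IP). The median LFC of the 18 was 0.39 in IP and 0.56 in input. DTR replicate 4 stood highest, with a summed level of 268 CPM in input against 157 to 170 CPM in the other DTR inputs, and of 284 CPM in IP against 198 to 218 CPM. Without DTR IP replicate 4, or without control IP replicate 1, the count was 1 in IP, and it was 2 in input without DTR input replicate 4 and 1 without control input replicate 1. Of 15 inflammatory cytokines, 8 were tested. None fell, and 1 rose in IP and 2 in input, beside 8.44% and 7.17% of all tested genes. Il1a had an LFC of 1.10 in IP (adjusted p = 0.0043) but reached the filter through DTR IP alone, where it was high, and Il33 (0.99, adjusted p = 0.0097) and Lif (0.74, adjusted p = 0.039) rose in input. The input count of 2 was 1 without control input replicate 1, 2 or 3 or without DTR input replicate 2, 3 or 4. Tnf, Il1b and Il6 did not reach the filter.

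**Figure D4:**
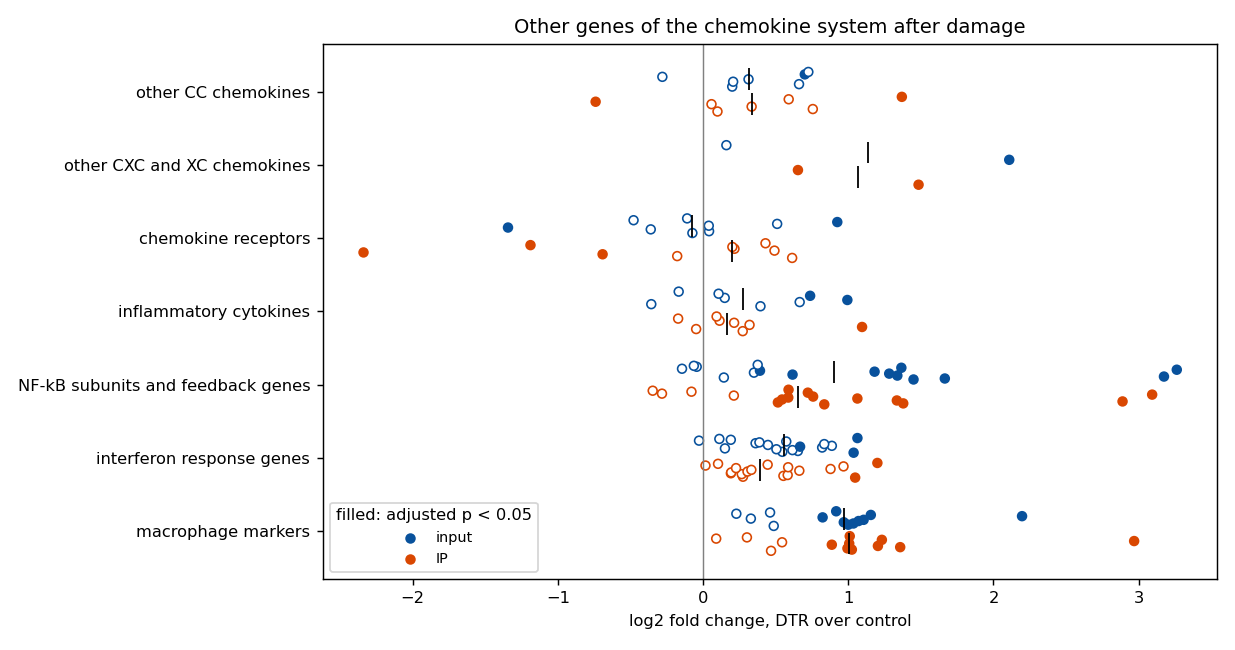
LFC of DTR over control (horizontal axis, log2 scale) for tested genes of 7 lists, each point a gene, in input (blue) and IP (orange), filled where the adjusted p was under 0.05, with medians as black lines. NF-kB genes reach 3.26 and 12 of 16 are filled in IP, while 2 of 18 interferon genes are filled in IP and Ackr4 lies at -2.34.

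Most tested macrophage markers also rose. Of 14 macrophage markers 13 were tested and 9 rose in each fraction, beside 8.44% of all tested genes in IP and 7.17% in input (median LFC 1.01 in IP and 0.97 in input), led by Fcgr1, an Fc receptor (2.97 and 2.20), with C1qb at 1.36 and 0.97 and Lyz2 at 1.23 and 1.16. The summed level of the 14 was 166 to 176 CPM in control input, 241 to 370 CPM in DTR input, 29.0 to 45.0 CPM in control IP and 64.6 to 107 CPM in DTR IP. None of the 14 was at 0 in any group, and their sum in IP was 0.218 of that in input in control and 0.285 in DTR. Adgre1, Mrc1 and Ptprc did not pass after damage in either fraction, Fcer1g did not pass in IP and Csf1r did not pass in input. Between DTR IP and DTR input the LFC of the 13 ranged from -2.30 (Lyz2) to -0.22 (Fcgr1). The part of macrophage RNA in the chemokine levels was not tested.

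Neutrophil markers, 10 in all, of which 4 were tested, summed to 4.81 to 7.91 CPM in control input and 3.52 to 38.0 CPM in DTR input, and to 2.68 to 3.38 and 2.74 to 9.51 CPM in IP. The highest value in both fractions was that of DTR replicate 1, and the defining marker Ly6g had at most 3 reads in each library. DTR IP replicate 1 was the highest of its group for 8 of the 10 chemokines, and DTR input replicate 1 for 6 of 10. Replicate 1 was also most often the highest in control, for 5 of 10 in control IP and 4 of 10 in control input. Without DTR IP replicate 1 no chemokine passed in IP, and without DTR input replicate 1 both Cxcl1 and Cxcl10 passed in input. Of the neutrophil markers 0 rose and 1 (Camp) fell in IP, beside 8.44% and 7.3% of all tested genes. None passed in input, where 7.17% of all tested genes rose and 5.21% fell. Camp did not pass without DTR IP replicate 2 or control IP replicate 3 or 4.

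Of 10 lymphocyte markers only 3 were tested, and 2 of these, Cd3d (LFC 1.74 in IP and 1.84 in input) and Cd79a (1.32 and 1.30), reached the filter through DTR libraries alone, which fixes their direction. Cd4 had an LFC of 0.77 in input (adjusted p = 0.048, and 0.095 with edgeR) and 0.64 in IP (adjusted p = 0.092). Among those not tested, Ms4a1 had 12 reads over the control inputs and 3 over the DTR inputs, Nkg7 had 9 and 2, and both had none in IP, while Cd8a had 51 and 60 reads in input and 15 and 10 in IP. The list summed to 1.47 to 2.93 CPM in control input and 6.001 to 8.01 CPM in DTR input. Of 9 mesenchyme markers 6 rose in IP and 2 in input, of 8 endothelial markers 3 and 1, and of 8 hair cell markers 2 and 0, with none lower, beside 8.44% of all tested genes that rose in IP and 7.17% in input. The hair cell count in IP was 0 without DTR IP replicate 1 or 3 or without control IP replicate 1, 3 or 4, and 1 without DTR IP replicate 2 or 4. The mesenchyme count in input was 1 without DTR input replicate 1 or 3. The part of these cells in the chemokine levels was not tested.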

How the data were processed

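RNA of 4 control and 4 DTR pools was sequenced as input and IP, 16 libraries in all. The authors aligned paired-end reads and counted them per gene (HISAT2 and HTSeq in the study's methods, TopHat in the submitters' processing notes, GRCm38), and deposited CPM, counts scaled to the counted reads of each library. The strand setting and annotation release were not given in the sources used here. CPM values were whole multiples of 1 read for 100% of values (tolerance 0.01 reads), so reads were recovered for edgeR and DESeq2. Of 50316 listed genes 2587 had no value. Intervals and limits from reads cover counting error only, without molecular identifiers.

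CPM were quantile-normalised, and log2(CPM + 0.5) was fitted with limma 3.58.1 (trend, group means over 16 libraries, R 4.3.3), with Benjamini-Hochberg adjustment over 16994 genes. Separation used a floor at the 10th percentile of the tested genes. Exact permutation tests used SciPy 1.17.1, and edgeR 4.0.16 and DESeq2 1.42.0 were alternatives. The code was tested on simulated data. A listed symbol with several gene IDs (Ccl19, Ccl21a, Ccl27a, Itgam) was taken as the ID on an assembled chromosome. Exon lengths and coordinates were from GENCODE and promoters from RefSeq, which held 7 of the 10 genes.

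The genes and lists were chosen with earlier results of these data known. Named were all 10 genes, a set list of receptors (1 of them is not reported here), up to 4 genes per list and direction with the largest LFC, and the 3 genes most like each tested member. Libraries of 1 replicate number deviated together (correlations 0.288 to 0.560, all 4 pairs over 0.1 in each comparison), from the pool for input and IP and from a number shared in the labels between genotypes. The fourth replicate is numbered 6 in the files. No batch is labelled.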

Additional observations from a re-analysis of the deposited data

Results flagged for a closer look

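Among 40 groups of 4 libraries, 3 held a library far from the other 3 (by Dixon's test at the 95% level). Chance alone gives about 1 in 20 groups for normally spread values, a rate that need not hold for counts near 0. Ccl3 was at 0.339 CPM in control input replicate 3, next to 0.0776 CPM. Cxcl1 was at 1.93 CPM in DTR IP replicate 1, next to 0.822 CPM. Cxcl2 was at 0.116 CPM in control IP replicate 2, next to 0 CPM in the others, which fixes the flag whatever the value.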

How the results depend on the processing

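The number of chemokines that passed in DTR IP against control IP, 2, was 1 without a filter on low values, 0 when only the compared groups were fitted, 0 by the study's criteria for IP groups and 0 with a filter of 2 CPM, which left 4 members to test. In DTR input against control input the 2 calls became 0 with that filter and 0 by the study's criteria. The gap of Cxcl10 lay at 1.4999 there, with values held at the floor computed here. In DTR IP against DTR input the 4 calls became 2 with an LFC of at least 1 and a gap of over 1.5-fold, 1 with the LFC of at least 2 that the study asked of IP against input, and 2 with edgeR without a filter. In control IP against input the LFC of at least 2 left 1 of 3 calls. This LFC threshold, edgeR without a filter and the folds without single libraries were chosen after seeing the data. The cause was not tested, apart from the smaller number of members tested. Leaving out each library in turn gave 0 to 2 calls in DTR IP, 2 to 2 in DTR input, 0 to 0 for the difference, 2 to 4 for control IP against input and 3 to 4 for DTR IP against input. With the replicate block, counts were 2, 2, 0, 4 and 4, and the only changed call was Cx3cl1 in control IP against input. Over all members and settings 891 LFC kept their direction or call, 30 lost and 2 gained a call, and none with a call changed sign. At this depth 3 reads are 0.0715 to 0.107 CPM, which limits Ccl4 and Cxcl2 in control libraries.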

Other observations

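Other scarce inflammatory transcripts behaved as follows. Cxcl3, another neutrophil attractant of the Cxcl1 and Cxcl2 group, had 0 reads in all 8 control libraries, 14 reads over the 4 DTR inputs and 21 over the 4 DTR IPs, where replicate 3 had none. Tnf had 0 to 0.176 CPM in control IP and 0.331 to 0.643 CPM in DTR IP, without overlap, and 0.0242 to 0.129 and 0 to 0.295 CPM in input. Il6 had 0 to 0.0259 CPM in control input and 0.274 to 0.460 CPM in DTR input, without overlap, and 0 to 0.239 and 0.0994 to 0.605 CPM in IP. Cxcl9 and Cxcl11, the other ligands of Cxcr3, had means of 0.190 and 0.167 CPM in control input and 0.110 and 0.158 CPM in DTR input. These genes were named after their values were seen.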
